A study of Homo sapiens with 4 samples.

Results

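The results below are the difference between the responses of a resistant and a sensitive melanoma line to the same drug exposure, gene by gene. The members are the protein-coding entries of the gene-level count table that had at least 50 counts in any of the 4 libraries. They number 1799 of 19659 protein-coding entries and of 46416 entries in all. For each one, the log2 ratio of 10 nM over untreated in the resistant line (A375-R) was subtracted from the same log2 ratio in the sensitive line (A375-S). A positive difference therefore means a more positive response in A375-S, and a negative difference a more positive response in A375-R.

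A375 is an established human melanoma cell line with a mutated BRAF gene. The 4 groups were A375-R cells given 10 nM encorafenib for 48 h, untreated A375-R cells, A375-S cells given 10 nM encorafenib for 48 h, and untreated A375-S cells, with 1 library in each. Encorafenib is an inhibitor of the BRAF kinase. The cells of all groups were grown in high-glucose DMEM with serum, and the sources used here do not say how A375-R became resistant or whether it is a single clone. With 1 library in each group there is no spread between replicates, no difference has a replicate check, and no p-value is given. Every comparison is between these libraries, not between conditions.

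In BRAF-mutated melanoma, the mutant kinase drives the MAPK cascade through MEK and ERK without a growth factor signal. Active ERK turns on transcription factors of the AP-1 and ETS families, feedback phosphatases and Sprouty proteins, secreted growth factors, and cyclin D1, which takes cells into DNA replication. BRAF inhibitors shut off this output, and the pigment cell programme under the transcription factor MITF often goes up as it falls. Resistant cells can regain MAPK output or adopt other growth and survival programmes, and a comparison of responses shows which genes still react to the drug.

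Protein-coding entries held 307026 counts in treated and 326919 in untreated A375-R, against 215894 in treated and 435351 in untreated A375-S. This was 0.845% of gene-table counts in treated A375-S and between 1.29% and 1.497% in the other 3 libraries. Multiplying a count by 1.01 for treated A375-R, 0.978 for untreated A375-R, 1.42 for treated A375-S or 0.718 for untreated A375-S brings it to a common depth, called scaled counts here. Intervals are 95% counting intervals of log2 ratios. They hold for sampling of reads alone, as amplified reads carrying no molecular identifier do not each stand for a separate molecule. A count of 0 allows up to 3 counts. A fold written with "at least" sets such a count to 3 and leaves out the counting error of the other library. The pigment cell markers SOX10, MITF, MIA and S100B were present in all 4 libraries, MLANA and TYR were at 0 in all, and PMEL had 1 count in treated A375-R and 0 elsewhere. The summed counts of 8 such markers were 510 in treated and 253 in untreated A375-R, against 575 in treated and 308 in untreated A375-S. Of these counts, DCT alone held 145 in treated and 1 in untreated A375-R, against 332 in treated and 0 in untreated A375-S. Fibroblast markers summed to 4 to 7 counts per library, endothelial markers to 1 to 7 and keratinocyte markers to 8 to 106, most of the last from KRT18. Immune markers summed to 899 to 1306, nearly all from CD74 and HLA-DRA, with CD3E and CD14 at 0.

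Of the 1799 genes, 509 had at least 50 counts in all 4 libraries and 612 in a single library. The single library was untreated A375-S for 468 of these, treated A375-R for 75, untreated A375-R for 49 and treated A375-S for 20. Of the 468 genes that reached the minimum only in untreated A375-S, 363 had an A375-S response below 0, so counts and medians over the members carry this selection. The 52 genes with a highest count of exactly 50 had a median difference of -0.20, and the 45 with a highest count of 49, just outside, had -0.30.

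With the scaling used here, most of the response was shared in direction and larger in the sensitive line. Across the 509 genes that reached 50 counts in all 4 libraries, the responses of A375-R and A375-S correlated with a Pearson coefficient of 0.67 and a Spearman coefficient of 0.60. Genes are not independent replicates, so this is a description. The responses had the same sign in 73.7% of these genes. The SD of the responses was 0.51 in A375-R and 0.70 in A375-S, where the treated library was the shallowest of the 4. The SD of the differences was 0.52, against a median counting error of 0.26 for a single difference. Over all 1799 genes the median response was -0.10 in A375-R and -0.16 in A375-S, and the median difference was -0.09, with quartiles of -0.48 and 0.33.

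**Figure D1:**
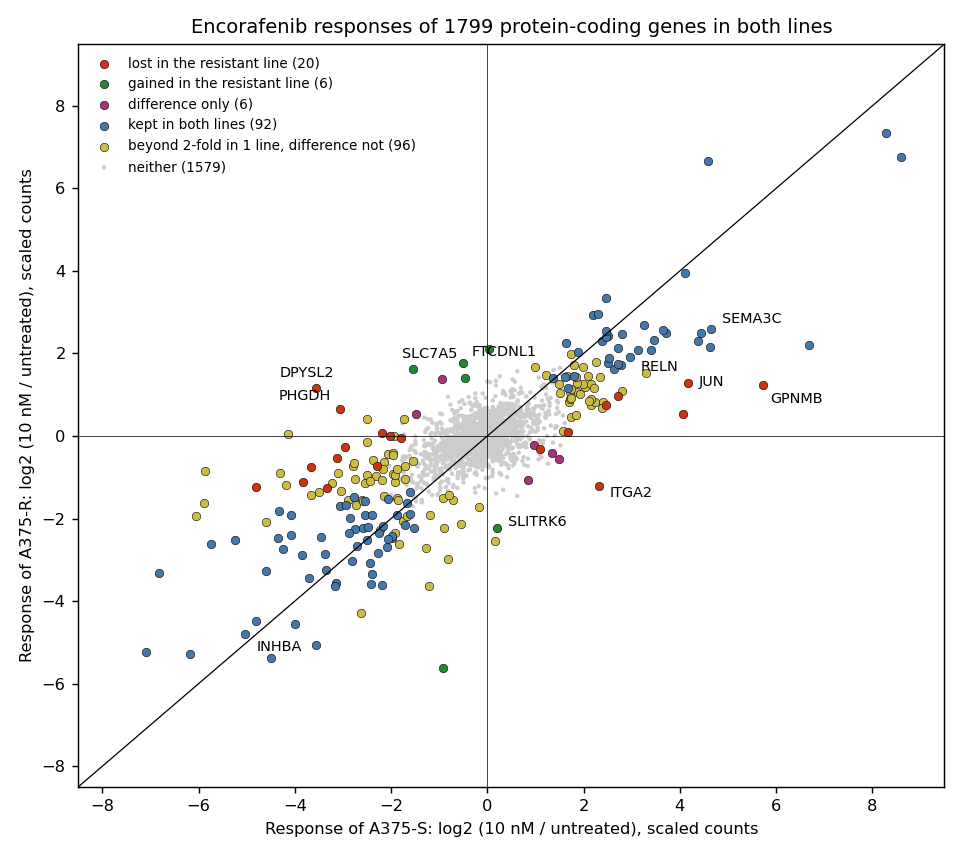
Response of A375-R (vertical) against response of A375-S (horizontal), each the log2 ratio of 10 nM over untreated in scaled counts with a prior count of 0.5, for 1799 genes coloured by class. The line marks equal responses, the 92 kept genes lie at lower left and upper right, on or off the line, and the 20 lost genes lie nearer the horizontal axis; the extreme positions of the 14 genes with a count of 0 depend on the prior count.

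A response beyond 2-fold is one whose interval lies wholly at or past 1 in log2, on either side of 0. In A375-R, 44 genes were higher (2.45%) and 73 lower (4.06%) by this rule, against 77 higher (4.28%) and 112 lower (6.23%) in A375-S. A response beyond 2-fold in both lines was called kept, which held for 37 higher genes (2.06%) and 55 lower genes (3.06%). A response beyond 2-fold in A375-S was called lost in A375-R where it was not kept and the difference, with the same sign, was also beyond 2-fold. This held for 8 higher genes (0.445%) and 12 lower genes (0.667%). The mirror case, gained in A375-R, held for 4 higher genes (0.222%) and 2 lower genes (0.111%). No gene was beyond 2-fold in opposite directions.

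With the scaling used here, kept genes therefore outnumbered lost ones, 92 against 20. They made up 84.1% of the higher and 75.3% of the lower responses of A375-R, against 48.1% of the higher and 49.1% of the lower responses of A375-S. Of the 112 lower responses of A375-S, 104 had the same sign in A375-R, as did 75 of the 77 higher ones. A further 77 responses of A375-S and 19 of A375-R were beyond 2-fold in that line only, with a difference that was not; the counts did not resolve whether these were kept. The difference was beyond 2-fold in 16 genes above 0 (0.889%) and 19 below 0 (1.06%), and its interval left out 0 in 172 genes above (9.56%) and 220 below (12.2%).

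These splits rest on the scaling, which used TMM factors. Scaling by total gene-table counts, most of which are not protein-coding, shifted every difference by -0.71, the A375-R responses by 0.13 and the A375-S responses by -0.58. Under it, A375-R had 52 genes higher and 69 lower, and A375-S had 45 higher and 274 lower. The differences beyond 2-fold were 4 above and 102 below 0. Lost responses were 3 higher and 64 lower, and kept ones 30 higher and 59 lower. Kept lower genes then no longer outnumbered lost lower ones. A positive difference under 0.71 turns negative under that scaling. Scaling by DESeq2 size factors, by TMM over protein-coding entries or by total protein-coding counts moved the median difference by at most 0.061.

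The 12 lower responses lost in A375-R fell into metabolic enzymes and transporters, matrix and neuronal genes, and histones. Of these 12 genes, 8 reached 50 counts only in untreated A375-S, so most of the class entered through the library in which it is high. DPYSL2, which organises microtubules in growing neurites, had 18 counts in treated and 8 in untreated A375-R, against 2 in treated and 58 in untreated A375-S. Its difference was -4.73 (interval -8.35 to -2.57), and at common depth the untreated sensitive library was the highest and the treated sensitive library the lowest. PHGDH, the first enzyme of serine synthesis from a glycolytic intermediate, had 28 and 18 counts in treated and untreated A375-R, against 3 and 57 in treated and untreated A375-S. The difference of PHGDH was -3.72 (-6.41 to -1.97), with a response of 0.66 (-0.23 to 1.62) in A375-R and -3.06 (-5.59 to -1.65) in A375-S. PYGB, a glycogen phosphorylase, had 76 and 171 counts in treated and untreated A375-R, against 8 and 239 in treated and untreated A375-S. PYGB was lower in the treated library of both lines, by -1.12 (-1.54 to -0.73) in A375-R and -3.84 (-5.15 to -2.92) in A375-S, so its loss was partial.

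SLC26A2, a sulfate transporter, was the most highly counted lost lower gene, with 768 and 1317 counts in treated and untreated A375-R, against 147 and 1422 in treated and untreated A375-S. Its responses of -0.74 (-0.87 to -0.61) in A375-R and -2.29 (-2.55 to -2.05) in A375-S differed by -1.55 (-1.84 to -1.28), the narrowest interval among the lost lower genes. TBC1D4, a Rab GTPase-activating protein that holds glucose transporters inside the cell, had 16 and 24 counts in treated and untreated A375-R, against 14 and 249 in treated and untreated A375-S. The untreated sensitive library alone was high for TBC1D4, and its difference was -2.59 (-3.94 to -1.30). NIPAL3 had 28 and 35 counts in treated and untreated A375-R, against 4 and 69 in treated and untreated A375-S, and a difference of -2.69 (-4.90 to -1.15).

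TNC, the matrix glycoprotein tenascin C, had 40 and 39 counts in treated and untreated A375-R, against 12 and 112 in treated and untreated A375-S. Its response was 0.08 (-0.60 to 0.75) in A375-R and -2.19 (-3.24 to -1.38) in A375-S, a difference of -2.27. VGF, a precursor of secreted neuropeptides, had 29 and 72 counts in treated and untreated A375-R, against 20 and 405 in treated and untreated A375-S. Treated cells of both lines held similar scaled counts of VGF, 29.2 in A375-R and 28.3 in A375-S, while the untreated cells held 70.4 in A375-R and 291 in A375-S. The responses of VGF were -1.26 (-1.95 to -0.63) in A375-R and -3.33 (-4.09 to -2.71) in A375-S.

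The other 4 lost lower genes were the histone genes H2AC20, H2AC19, H4C14 and H3C2, which package newly replicated DNA. H2AC20 had 46 and 47 counts in treated and untreated A375-R, against 29 and 235 in treated and untreated A375-S, a difference of -2.03 (-2.91 to -1.18). H4C14 had 17 and 30 counts in treated and untreated A375-R, against 3 and 87 in treated and untreated A375-S, a difference of -2.90 (-5.57 to -1.14). H3C2, with a single count in treated A375-S, had a difference of -3.57 (-9.58 to -1.01). Its response in A375-R was -1.23 (-2.67 to -0.04), so its loss was partial. Several histone genes have near-identical copies, so how reads were split among them is uncertain, and the family is best read as a sum.

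Over the replication histones, 16 of 19 listed genes were members, of which 15 reached 50 counts only in untreated A375-S. Their summed difference was -1.51 (-1.80 to -1.21). Over all 19 listed genes with no count minimum, a sum added after the data were seen, counts were 342 in treated and 530 in untreated A375-R, against 239 in treated and 1880 in untreated A375-S. That summed response was -0.59 (-0.79 to -0.39) in A375-R and -1.99 (-2.19 to -1.80) in A375-S, a difference of -1.40 (-1.69 to -1.12). In these bulk samples, fewer replicating cells and less RNA per cell cannot be told apart. The response was below 0 in 11 of 16 members in A375-R and in 16 of 16 in A375-S. Of the listed genes, 3 were lost lower, against 0.667% of all 1799 genes. Another 6 were lower beyond 2-fold in A375-S only, without a resolved difference. The median difference of the 16 members was -1.62 (-1.65 with counts of 0 set to 3 and no prior count), against -0.09 over all 1799 genes, and it carries the selection through untreated A375-S. H2AC19 is not on the list of 19. In H3C15, both A375-R libraries were at 0, so no fold is given there, against 5 and 190 counts in treated and untreated A375-S.

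**Figure D2:**
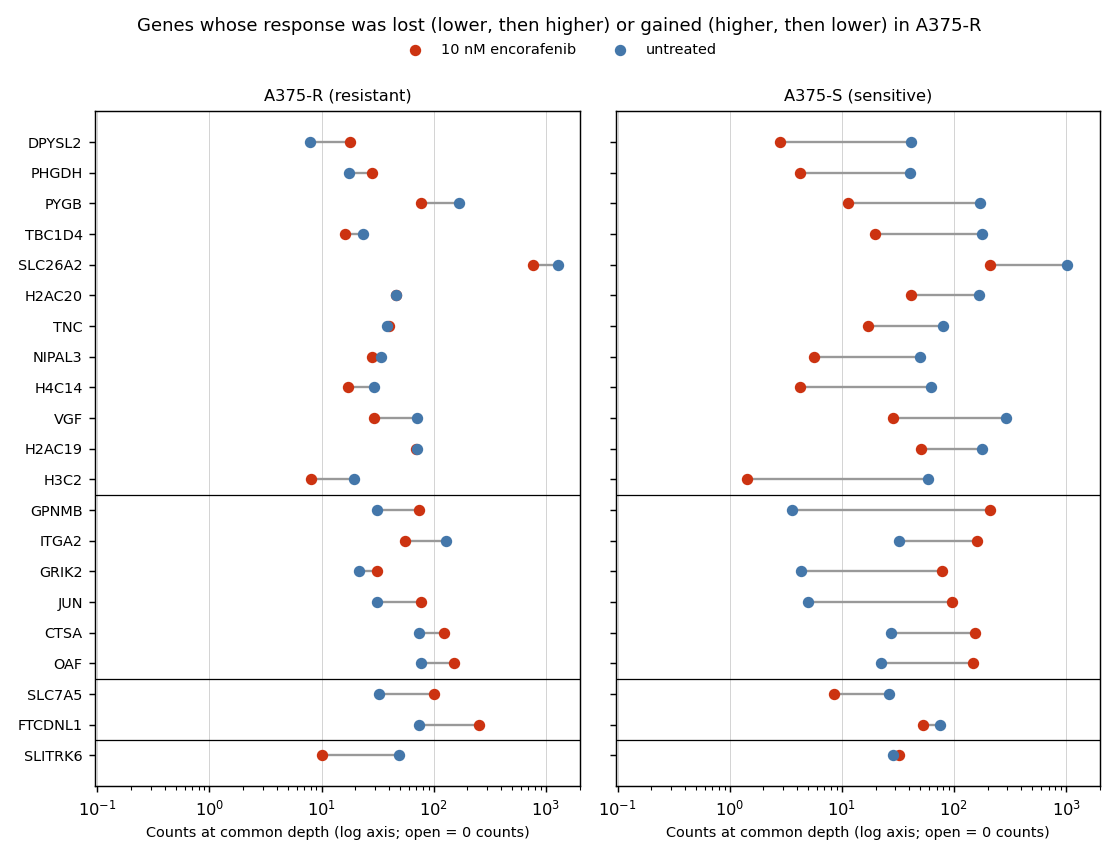
Scaled counts (log axis) with 10 nM encorafenib (red) and untreated (blue) in A375-R (left) and A375-S (right) for genes called lost or gained, leaving out entries reported as uncertain; horizontal lines separate lost lower, lost higher, gained higher and gained lower genes. For the lost lower genes the points lie farther apart in A375-S than in A375-R. TNC, for example, had 1.05 times the untreated level in A375-R and 0.219 times in A375-S. In VGF, PYGB, SLC26A2 and H3C2 the response interval of A375-R also lay below 0.

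The higher responses lost in A375-R included genes of lysosomes and pigment cells, an integrin and an AP-1 subunit. GPNMB, a glycoprotein of melanosomes and lysosomes under the control of MITF family factors, had 74 and 32 counts in treated and untreated A375-R, against 148 and 5 in treated and untreated A375-S. It was 2.36-fold higher with the drug in A375-R and 53.3-fold higher in A375-S. The difference of GPNMB was 4.50 (3.15 to 6.38), the largest of the lost higher genes. The lines stood apart with the drug, at scaled counts of 74.4 in treated A375-R and 210 in treated A375-S, and also without it, at 31.3 in untreated A375-R and 3.59 in untreated A375-S.

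ITGA2, the alpha-2 subunit of a collagen-binding integrin, had 55 and 131 counts in treated and untreated A375-R, against 114 and 45 in treated and untreated A375-S. Beside the uncertain CSKMT, it was the lost gene with opposite responses whose intervals left out 0, with a response of -1.20 (-1.69 to -0.75) in A375-R and 2.31 (1.81 to 2.85) in A375-S. JUN, a subunit of the AP-1 transcription factor, had 77 and 32 counts in treated and untreated A375-R, against 68 and 7 in treated and untreated A375-S. JUN was 2.45-fold higher in A375-R and 18.0-fold higher in A375-S, and the libraries differed most when untreated, at 31.3 scaled counts in A375-R and 5.02 in A375-S. GRIK2, a kainate-type glutamate receptor subunit, had 31 and 22 counts in treated and untreated A375-R, against 55 and 6 in treated and untreated A375-S, a difference of 3.55 (2.09 to 5.36).

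CTSA, a lysosomal carboxypeptidase that protects other lysosomal enzymes, had 123 and 75 counts in treated and untreated A375-R, against 108 and 38 in treated and untreated A375-S. Its response was 0.75 (0.33 to 1.19) in A375-R and 2.48 (1.94 to 3.06) in A375-S. OAF was similar, at 0.97 (0.57 to 1.39) in A375-R and 2.71 (2.14 to 3.36) in A375-S. CTSA and OAF had lower bounds of 1.02 for the difference, just past the 2-fold line. The remaining lost higher entries, WDR74 and CSKMT, overlap small nuclear or nucleolar RNA genes in the annotation, so their counts may not come from the mRNA and they are reported as uncertain.

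Promoter letters are shown for 6 genes whose windows held a motif that recurs in their class, to set the responses beside sequence. Each is the 250 bases before the gene's start in RefSeq on GRCh38.p14, 5′ to 3′ on the gene's strand, with motif letters in capitals. GPNMB, CTSA and DCT, a melanin synthesis enzyme with a kept higher response, are marked for the M-box (TCATGTG), the letters that MITF family factors bind, and GPNMB also for AP-1 (TGANTCA) and CTSA for the E-box (CACGTG). SLC7A5, a gained gene, is marked for the E-box. VGF and H2AC20, lost lower genes, are marked for TATAAA and CCAAT, and VGF also for the E-box and the cyclic AMP response element (TGACGTCA). All motifs were searched on both strands, and the E-box and M-box letters do not overlap in CTSA.
GPNMB: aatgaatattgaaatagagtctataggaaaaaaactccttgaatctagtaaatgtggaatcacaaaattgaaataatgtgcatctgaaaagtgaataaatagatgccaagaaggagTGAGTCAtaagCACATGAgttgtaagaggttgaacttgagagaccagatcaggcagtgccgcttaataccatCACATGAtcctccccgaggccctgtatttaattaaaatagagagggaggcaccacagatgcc
CTSA: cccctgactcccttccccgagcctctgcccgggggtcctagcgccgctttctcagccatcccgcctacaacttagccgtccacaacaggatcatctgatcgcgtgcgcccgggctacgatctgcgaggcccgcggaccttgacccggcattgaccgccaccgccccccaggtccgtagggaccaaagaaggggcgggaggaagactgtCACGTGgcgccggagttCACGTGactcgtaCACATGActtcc
DCT: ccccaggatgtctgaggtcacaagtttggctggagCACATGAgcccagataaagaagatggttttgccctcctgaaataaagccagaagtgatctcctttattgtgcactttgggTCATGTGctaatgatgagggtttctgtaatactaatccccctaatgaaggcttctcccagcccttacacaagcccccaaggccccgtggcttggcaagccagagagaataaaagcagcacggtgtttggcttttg
SLC7A5: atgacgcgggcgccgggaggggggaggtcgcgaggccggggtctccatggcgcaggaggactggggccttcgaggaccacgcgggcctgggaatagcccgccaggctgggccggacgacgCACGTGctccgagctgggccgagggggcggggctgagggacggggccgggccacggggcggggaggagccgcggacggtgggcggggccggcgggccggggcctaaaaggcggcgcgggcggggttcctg
VGF: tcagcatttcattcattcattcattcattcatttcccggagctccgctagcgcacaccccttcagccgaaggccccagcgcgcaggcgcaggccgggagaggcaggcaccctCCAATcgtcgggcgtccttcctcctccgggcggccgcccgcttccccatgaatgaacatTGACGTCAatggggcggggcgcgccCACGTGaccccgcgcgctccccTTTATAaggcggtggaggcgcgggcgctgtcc
H2AC20: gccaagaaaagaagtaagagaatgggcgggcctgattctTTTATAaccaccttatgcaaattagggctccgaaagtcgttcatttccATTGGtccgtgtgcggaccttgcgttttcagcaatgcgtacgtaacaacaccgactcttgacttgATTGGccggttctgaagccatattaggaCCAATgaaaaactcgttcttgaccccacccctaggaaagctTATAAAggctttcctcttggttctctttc

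The GPNMB window is chr7:23246525-23246774 on the plus strand, with M-box letters at -123 and -62 and AP-1 letters at -134, counted from the first base before the start as -1. CTSA is chr20:45891085-45891334 on the plus strand, with M-box letters at -12 and E-box letters at -42 and -25. The DCT window, 1 of 2 for this gene, is chr13:94479683-94479932 on the minus strand, with M-box letters at -215 and -135. SLC7A5 is chr16:87869508-87869757 on the minus strand, with E-box letters at -130. VGF is chr7:101165570-101165819 on the minus strand, and H2AC20 is chr1:149886668-149886917 on the plus strand. A window was matched for 1510 of the 1799 genes. The M-box was in 2 of 7 lost higher and 3 of 30 kept higher genes, against 2.12% of members and 3.11% of 27305 genes in the whole promoter table. The TATAAA letters were in 5 of 10 lost lower genes, against 11.2% of members and 13.05% of the table. These 5 include the histone genes H2AC20, H2AC19 and H3C2, which are of one family. The cyclic AMP element was in 2 of 10 lost lower genes, against 4.11% of members and 2.03% of the table. The CCAAT letters were in 7 of 10 lost lower genes, the same histone genes among them, against 44.0% of members and 37.0% of the table. The E-box was in 3 of 4 gained higher and 2 of 10 lost lower genes, against 11.4% of members and 7.73% of the table. Of the 4 gained higher genes, OR1F1, which held the letters, and RPL17, which did not, are reported below as uncertain. AP-1 letters were in 1 of 7 lost higher genes, against 6.82% of members and 8.06% of the table. The ETS (CCGGAAG), ATF4 (TGATGNAA) and cell cycle homology region (TTTGAA) letters, also searched, were in 1, 0 and 2 of 10 lost lower genes, against 22.5%, 2.52% and 13.8% of members and 10.2%, 3.89% and 16.05% of the table. In the kept higher genes, ATF4 letters were in 5 of 30 and cell cycle homology region letters in 8 of 30. These are matches of letters in small groups, shown after the responses were known, and not binding sites.

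Of the 6 gained responses, 4 had no exon overlap with a small RNA gene, and 1 of these, OR1F1, is set aside with the uncertain entries. SLC7A5, the transporter that brings large neutral amino acids such as leucine into the cell, had 100 and 33 counts in treated and untreated A375-R, against 6 and 37 in treated and untreated A375-S. The treated libraries held 100.6 scaled counts in A375-R and 8.50 in A375-S, and the untreated ones 32.3 in A375-R and 26.6 in A375-S. Its response was 1.63 (1.06 to 2.25) in A375-R and -1.55 (-3.18 to -0.39) in A375-S, a difference of -3.17 (-4.92 to -1.84). RefSeq places the microRNA genes MIR6775 and MIR11401 within the span of SLC7A5, outside the exons used for the overlap, and their part in its counts was not tested. FTCDNL1 had 252 and 76 counts in treated and untreated A375-R, against 37 and 105 in treated and untreated A375-S, a difference of -2.27 (-2.99 to -1.61). The gained lower gene SLITRK6, a neuronal transmembrane protein, had 10 and 50 counts in treated and untreated A375-R, against 23 and 40 in treated and untreated A375-S. The call of SLITRK6 was near the line, at a difference of 2.42 (1.14 to 3.85).

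The other gained entries were uncertain. RPL17 hosts a small nucleolar RNA, CIT hosts a microRNA, and tRNA genes lie within the annotated span of OR1F1, which was noticed after its values were seen. OR1F1 encodes an olfactory receptor, and had 294 and 70 counts in treated and untreated A375-R, against 114 and 219 in treated and untreated A375-S.

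In 6 genes the difference was beyond 2-fold although neither response was. PYCR1, an enzyme of proline synthesis, had 47 and 33 counts in treated and untreated A375-R, against 16 and 91 in treated and untreated A375-S, a difference of -2.03 (-3.17 to -1.01). RFX5, a regulator of MHC class II genes, had 39 and 15 counts in treated and untreated A375-R, against 13 and 51 in treated and untreated A375-S, a difference of -2.34 (-3.77 to -1.07). Both genes were higher with the drug in the resistant line and lower in the sensitive line, although the response interval of PYCR1 in A375-R held 0 (-0.12 to 1.24). M6PR, which carries enzymes to lysosomes, had a difference of 2.03 (1.06 to 3.04). NMT1, which attaches myristate to proteins, had 1.93 (1.04 to 2.84), and TPT1, whose gene overlaps a small nucleolar RNA, had 1.20 (1.11 to 1.29).

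**Figure D3:**
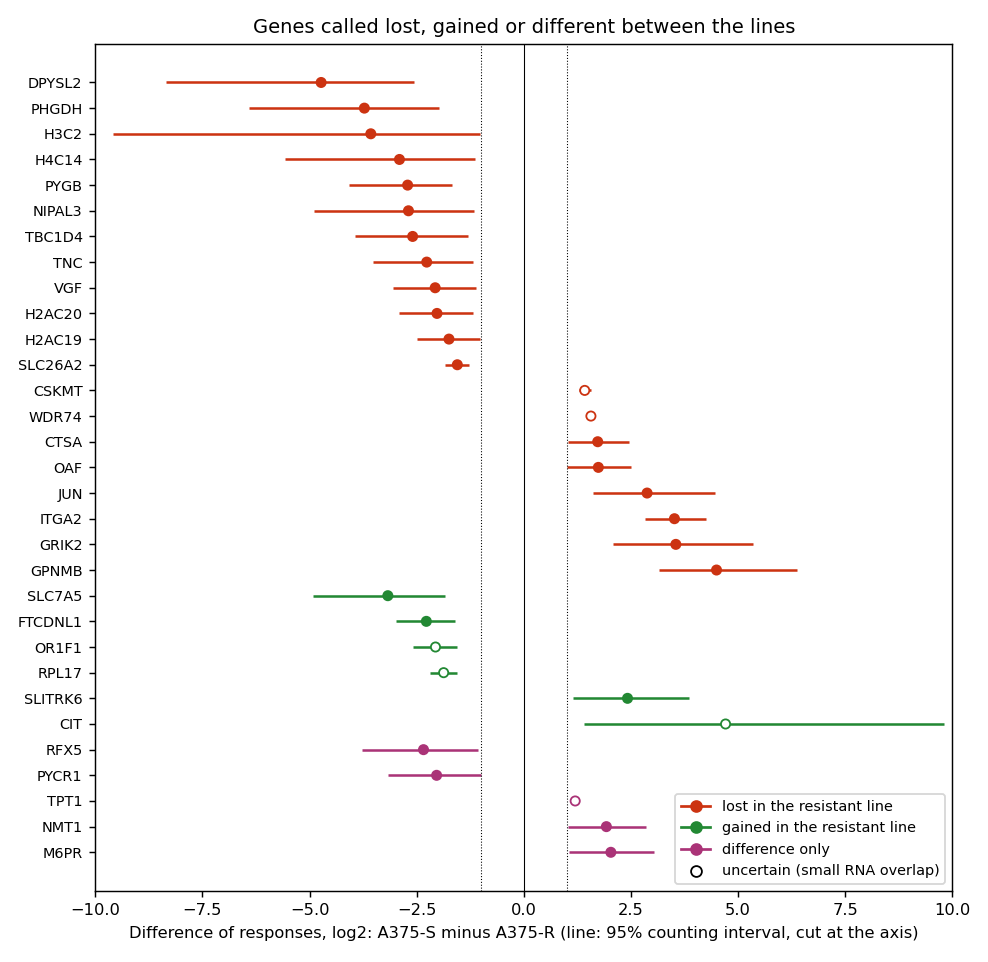
Difference of responses (A375-S minus A375-R, log2) with its 95% counting interval for genes called lost, gained or different only; open points are uncertain entries and dotted lines mark 2-fold. GPNMB at 4.50 and ITGA2 at 3.52 lie far to the right and DPYSL2 at -4.73 far to the left, while CTSA, OAF, M6PR and NMT1 have bounds close to the 2-fold line.

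The kept lower responses were led by secreted growth factors and matrix genes. INHBA, the beta-A subunit of activin, had 45 and 1311 counts in treated and untreated A375-R, against 27 and 1773 in treated and untreated A375-S. The treated level was 0.0357 of the untreated level in A375-R and 0.0306 in A375-S, and the difference was -0.22 (-0.99 to 0.50). HAPLN1, which links hyaluronan to proteoglycans, had 5 and 127 counts in treated and untreated A375-R, against 6 and 361 in treated and untreated A375-S, a difference of -0.32 (-2.30 to 1.78). CEMIP, which degrades hyaluronan, had 2 and 96 counts in treated and untreated A375-R, against 0 and 135 in treated and untreated A375-S, where it was at least 22.8-fold lower. IGFBP3, which binds insulin-like growth factors, had 2 and 99 counts in treated and untreated A375-R, against 0 and 71 in treated and untreated A375-S, where it was at least 11.99-fold lower. TGFA, a ligand of the EGF receptor, had 18 and 182 counts in treated and untreated A375-R, against 3 and 168 in treated and untreated A375-S, a difference of -1.35 (-3.96 to 0.29).

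SLC20A1, a phosphate transporter, and HMGA1, an architectural chromatin protein, had responses that nearly coincided. SLC20A1 had -3.24 (-3.93 to -2.67) in A375-R and -3.36 (-4.30 to -2.64) in A375-S. HMGA1 had -2.66 (-3.23 to -2.16) in A375-R and -2.70 (-3.30 to -2.19) in A375-S. CKAP2L, a mitotic spindle protein, had 0 and 21 counts in treated and untreated A375-R, where it was at least 6.80-fold lower, against 1 and 66 in treated and untreated A375-S.

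All gene lists used here were chosen with earlier results of these data known, so a share of called members is a description and no support. Of the 29 listed secreted ligands and surface effectors, 12 were members, of which 8 were kept lower, against 3.06% of all genes. Another 3 were lower beyond 2-fold in A375-R only and 1, MMP14, was neither. Their median response was -3.45 in A375-R and -3.38 in A375-S. The median difference was 0.03, and it turned negative in 4 of 13 settings, to -0.68 with total gene-table scaling. With counts of 0 set to 3 and no prior count, the medians were -3.51 in A375-R, -3.18 in A375-S and 0.45 for the difference. The difference of the summed counts was -0.47 (-0.66 to -0.28). TIMP3, an inhibitor of matrix metalloproteases, was lower with the drug by -1.44 (-1.70 to -1.18) in A375-R and -0.81 (-1.27 to -0.38) in A375-S. MMP14, a membrane-bound metalloprotease, had 47 and 48 counts in treated and untreated A375-R, against 59 and 44 in treated and untreated A375-S, a difference of 1.39 (0.53 to 2.26).

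Of 26 listed direct outputs of MAPK signalling 14 were members. Of these, 6 were lower beyond 2-fold in A375-R, against 4.06% of all genes, and 7 in A375-S, against 6.23%. In 5 of the 14 the minimum was reached only in untreated A375-S. The response was below 0 in 14 of 14 in A375-R and 13 of 14 in A375-S. Of the 14, 5 were kept lower, 6 were called in neither line, 2 were lower beyond 2-fold in A375-S only and 1 in A375-R only. The median response was -1.68 in A375-R and -1.79 in A375-S, and the median difference was -0.44, against -0.09 over all genes. The difference of the summed counts of the 14 was smaller, at -0.20, with an interval that held 0 (-0.43 to 0.02). Over all 26 listed genes with no count minimum, a sum added after the data were seen, it was -0.28 (-0.50 to -0.07). With counts of 0 set to 3 and no prior count, the medians were -1.70 in A375-R, -1.83 in A375-S and -0.47 for the difference. The median difference stayed below 0 in all 13 settings (-1.15 to -0.33), but not all of them could turn it. In any list, settings that change only the interval method or the threshold leave the median difference as it is. Total gene-table scaling can only lower it. DUSP6, the phosphatase that acts on ERK, had 24 and 127 counts in treated and untreated A375-R, against 12 and 117 in treated and untreated A375-S, a difference of 0.09 (-1.14 to 1.19). CCND1, cyclin D1, had 46 and 189 counts in treated and untreated A375-R, against 7 and 106 in treated and untreated A375-S, a difference of -0.86 (-2.38 to 0.29).

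Some immediate targets kept their direction but were less reduced in A375-R. EGR1, an early growth response transcription factor, had 26 and 95 counts in treated and untreated A375-R, against 3 and 139 in treated and untreated A375-S, a difference of -2.53 (-5.12 to -0.95). IER3, an immediate early gene, had 23 and 161 counts in treated and untreated A375-R, against 5 and 207 in treated and untreated A375-S, a difference of -1.52 (-3.40 to -0.15). ETV4, an ETS factor, had 7 and 29 counts in treated and untreated A375-R, against 0 and 65 in treated and untreated A375-S, where it was at least 10.98-fold lower. In PHLDA1 the difference ran the other way, at 0.47 (0.10 to 0.85), with responses of -0.73 in A375-R and -0.25 in A375-S; with total gene-table scaling it turned negative.

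**Figure D4:**
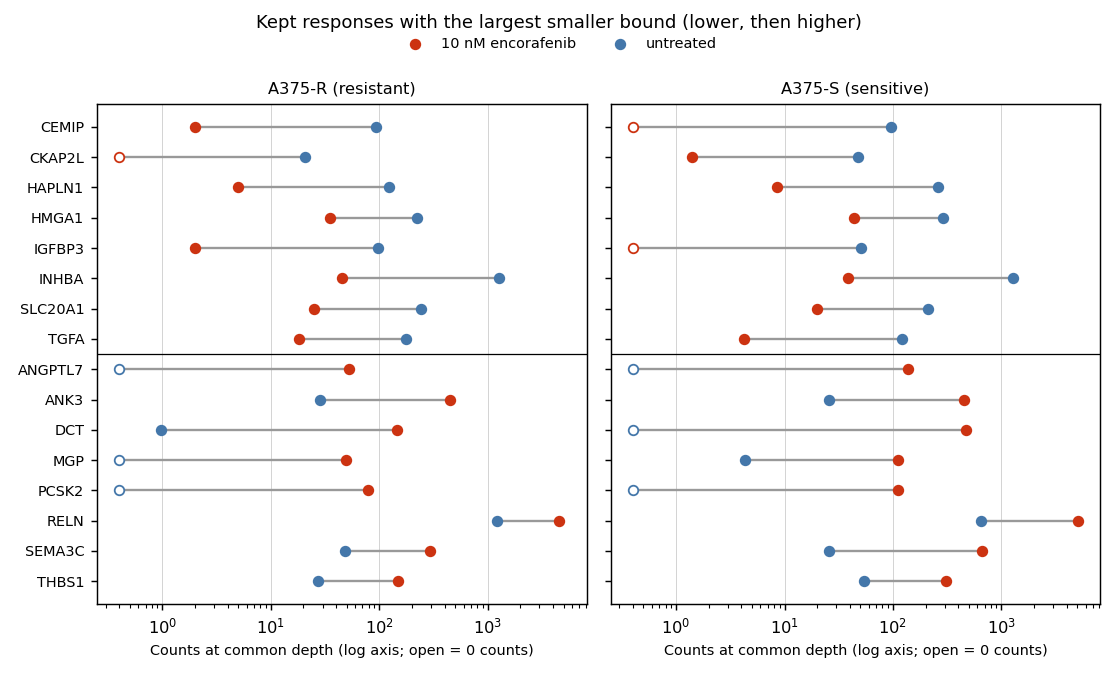
Scaled counts (log axis, open points at 0 counts drawn at the left edge) with 10 nM encorafenib (red) and untreated (blue) in A375-R (left) and A375-S (right) for 8 kept lower and 8 kept higher genes, which the rule ranked by the smaller of the 2 lines' bounds. The points of a gene lie in the same order in both panels, for example INHBA with 45 and 1311 counts in treated and untreated A375-R and 27 and 1773 in treated and untreated A375-S.

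Kept higher responses included pigment cell, neuronal and guidance genes. DCT had 145 counts in treated and 1 in untreated A375-R, against 332 and 0 in treated and untreated A375-S, 99.8-fold higher in A375-R (log2 interval 4.72 to 12.5) and at least 218-fold higher in A375-S. PCSK2, which processes neuropeptide precursors, had 78 and 0 counts in treated and untreated A375-R, against 78 and 0 in treated and untreated A375-S. It was at least 26.7-fold higher in A375-R and at least 51.3-fold higher in A375-S. ANGPTL7 had 52 and 0 counts in treated and untreated A375-R, against 97 and 0 in treated and untreated A375-S. MGP, an inhibitor of matrix calcification, had 49 and 0 counts in treated and untreated A375-R, against 79 and 6 in treated and untreated A375-S.

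RELN, a large secreted guidance protein, was the most highly counted of these, with 4528 and 1233 counts in treated and untreated A375-R, against 3605 and 908 in treated and untreated A375-S. It was 3.78-fold higher in A375-R and 7.83-fold higher in A375-S, a difference of 1.05 (0.91 to 1.19). ANK3, an ankyrin of the axon initial segment, had 445 and 29 counts in treated and untreated A375-R, against 320 and 36 in treated and untreated A375-S, a difference of 0.16 (-0.64 to 0.93). THBS1, a matrix glycoprotein, had responses of 2.42 (1.85 to 3.08) in A375-R and 2.51 (2.13 to 2.91) in A375-S. Of 30 listed neuronal genes 10 were members, of which 5 were kept higher, against 2.06% of all genes. Another 1 was kept lower (3.06% of all genes) and 2, DPYSL2 and VGF, were lost lower (0.667%). Their median difference was 0.16, turning negative (-0.55) with total gene-table scaling.

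The melanocyte lineage list had 4 members of 25 genes. MITF had 59 and 19 counts in treated and untreated A375-R, against 45 and 31 in treated and untreated A375-S, a difference of -0.14 (-1.24 to 0.92). SOX10 had responses of -0.09 (-0.53 to 0.35) in A375-R and -0.12 (-0.54 to 0.29) in A375-S. DCT and GPNMB, the other 2, had the kept and lost responses given above.

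Kept did not mean equal. Among the 37 kept higher genes, the interval of the difference left out 0 in 12, all with the larger response in A375-S, and held 0 in 25. Among the 55 kept lower genes, it left out 0 in 10 with the larger response in A375-S and in 1, AKAP12, with the larger response in A375-R, and held 0 in 44. With total gene-table scaling the same 37 higher genes had 5 larger in A375-R and 4 larger in A375-S, and the 55 lower genes 0 larger in A375-R and 25 larger in A375-S. The median of the kept higher responses was 2.31 in A375-R and 2.77 in A375-S, and that of the kept lower ones was -2.49 in A375-R and -2.82 in A375-S. With counts of 0 set to 3 and no prior count, they were 2.34 in A375-R and 2.78 in A375-S for higher genes, and -2.53 in A375-R and -2.94 in A375-S for lower genes. In 3 kept genes, named after their values were seen, the difference was itself beyond 2-fold.

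SEMA3C, a secreted semaphorin, had 292 and 49 counts in treated and untreated A375-R, against 463 and 36 in treated and untreated A375-S, a difference of 2.04 (1.36 to 2.75). TCN1, a vitamin B12 binding protein, had 172 and 38 counts in treated and untreated A375-R, against 78 and 1 in treated and untreated A375-S, a difference of 4.49 (lower bound 2.42). SYTL5, a Rab27 effector, had 17 and 103 counts in treated and untreated A375-R, against 3 and 263 in treated and untreated A375-S, a difference of -2.73 (-5.35 to -1.07). AKAP12, a scaffold of protein kinase A, had 44 and 553 counts in treated and untreated A375-R, against 74 and 786 in treated and untreated A375-S, a difference of 1.18 (0.60 to 1.78).

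Cell division genes also had a negative summed difference. The mitosis and replication list had 10 members of 37 genes, and the response was below 0 in 10 of 10 in both lines. Of the 10 members, 8 reached 50 counts only in untreated A375-S. The summed difference over the 10 was -0.98 (-1.43 to -0.54). Over all 37 listed genes with no count minimum, counts summed to 210 in treated and 535 in untreated A375-R, against 167 in treated and 1810 in untreated A375-S. That summed response was -1.31 (-1.55 to -1.08) in A375-R and -2.45 (-2.69 to -2.23) in A375-S, a difference of -1.15 (-1.48 to -0.81). TOP2A, which untangles replicated DNA, and MKI67, the proliferation antigen Ki-67, were kept lower, with differences of -1.87 (-3.70 to -0.30) and -1.66 (-4.06 to 0.45). ASPM, a spindle pole protein, had 6 and 28 counts in treated and untreated A375-R, against 3 and 168 in treated and untreated A375-S. The median difference of the 10 members was -0.83, with the same selection.

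Genes of amino acid supply, many of them targets of the stress factor ATF4, differed in the direction of their median response. Of 30 listed genes 10 were members, with a median response of 0.55 in A375-R and -0.35 in A375-S. PHGDH was lost lower, SLC7A5 was gained higher, and MTHFD2, a mitochondrial folate enzyme, was lower beyond 2-fold in A375-S only. MTHFD2 had 21 and 24 counts in treated and untreated A375-R, against 4 and 50 in treated and untreated A375-S, a difference of -2.36 (-4.63 to -0.71). The difference was below 0 in 9 of 10 genes, against 1004 of all 1799 genes. Its interval left out 0 in PHGDH, SLC7A5 and MTHFD2 alone, each time below 0, against 12.2% of all genes. Of these 3, PHGDH and MTHFD2 reached 50 counts only in untreated A375-S, so they carry the selection through that library. ATF4 itself had -0.54 (-1.25 to 0.14). The median difference of -0.43 stayed below 0 in all 13 settings (-1.13 to -0.20), some of which could not turn it.

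Lysosomal genes leaned in the other direction. Of 34 listed autophagy and lysosome genes 11 were members, with a median response of -0.15 in A375-R and 0.75 in A375-S, and a median difference of 0.64. The interval of the difference was above 0 in 4 of the 11, CTSA, PSAP, GRN and CD63, against 9.56% of all 1799 genes, and below 0 in none, against 12.2%. PSAP, the precursor of saposins, had 209 and 238 counts in treated and untreated A375-R, against 138 and 125 in treated and untreated A375-S, a difference of 1.27 (0.81 to 1.73). GRN, progranulin, had 69 and 71 counts in treated and untreated A375-R, against 60 and 50 in treated and untreated A375-S, a difference of 1.24 (0.48 to 2.01). CD63, a tetraspanin of late endosomes and melanosomes, had 3246 and 3088 counts in treated and untreated A375-R, against 1308 and 1534 in treated and untreated A375-S, a difference of 0.64 (0.51 to 0.77). With total gene-table scaling the list's median turned to -0.07 and CD63 turned negative.

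The interferon response list had 10 members of 26 genes, with a median response of 0.97 in A375-R and 1.32 in A375-S and a median difference of 0.65, which turned to -0.06 with total gene-table scaling. IFI6 had 107 and 51 counts in treated and untreated A375-R, against 33 and 9 in treated and untreated A375-S, a difference of 1.70 (0.52 to 3.10). IFITM3, which restricts virus entry, had responses of 1.02 (0.68 to 1.37) in A375-R and 1.93 (1.56 to 2.32) in A375-S. IFIT3 was kept higher. Of 30 FOXO and PI3K pathway genes 7 were members, with a median difference of 0.77. The difference was above 0 in all 7 under the TMM scaling, against 795 of all 1799 genes. Its interval was above 0 in 3 of the 7, against 9.56% of all genes. The median difference was 0.06 with total gene-table scaling. IRS2, an adaptor of the insulin receptor, had 217 and 125 counts in treated and untreated A375-R, against 282 and 172 in treated and untreated A375-S, a difference of 0.86 (0.42 to 1.29).

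The translation apparatus showed small but tightly counted differences. All 78 listed cytosolic ribosomal protein genes were members, 27 of them uncertain through small nucleolar RNA overlap. The response was below 0 in 62 of 78 in A375-R and in 76 of 78 in A375-S. The median response was -0.19 in A375-R and -0.46 in A375-S, and the median difference was -0.29. It was below 0 in all 13 settings (-1.0 to -0.23), some of which could not turn it. The interval of the difference was below 0 in 35 of 78 genes, against 12.2% of all genes, and above 0 in 1, against 9.56%. These genes have narrow intervals, with a median width of 0.578, against 1.74 over all genes. RPS14 had 5361 and 4981 counts in treated and untreated A375-R, against 2978 and 9050 in treated and untreated A375-S, a difference of -0.77 (-0.85 to -0.69). The translation factor EEF1G had responses of 0.24 (0.06 to 0.42) in A375-R and -0.54 (-0.75 to -0.34) in A375-S. Beside these values, small RNA overlap genes took 18.7% of member counts in treated and 18.6% in untreated A375-R, against 25.4% in treated and 20.3% in untreated A375-S, and the part this plays was not tested. The 12 lost lower and 92 kept genes included no entry called uncertain for a small RNA overlap or identical counts.

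Iron storage genes were higher with the drug in both lines. Of 22 iron handling genes 6 were members, with a median difference of 0.22 that turned negative in 4 of 13 settings. The difference of their summed counts had the other sign, at -0.41 (-0.55 to -0.26). FTH1, the ferritin heavy chain, had 1361 and 627 counts in treated and untreated A375-R, against 263 and 162 in treated and untreated A375-S. It was 2.23-fold higher in A375-R and 3.20-fold higher in A375-S, a difference of 0.52 (0.20 to 0.85) that turned negative with total gene-table scaling. FTL, the ferritin light chain, had 788 and 306 counts in treated and untreated A375-R, against 415 and 318 in treated and untreated A375-S, a difference of -0.04 (-0.33 to 0.25). TFRC, the transferrin receptor that brings iron in, had 46 and 68 counts in treated and untreated A375-R, against 10 and 9 in treated and untreated A375-S, a difference of 1.64 (0.08 to 3.25) that rests on few counts. SLC25A37, the mitochondrial iron importer, was kept lower, at -1.53 (-1.87 to -1.21) in A375-R and -2.05 (-2.42 to -1.72) in A375-S. Ferritin genes have processed pseudogenes, so their counts may be shared.

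**Figure D5:**
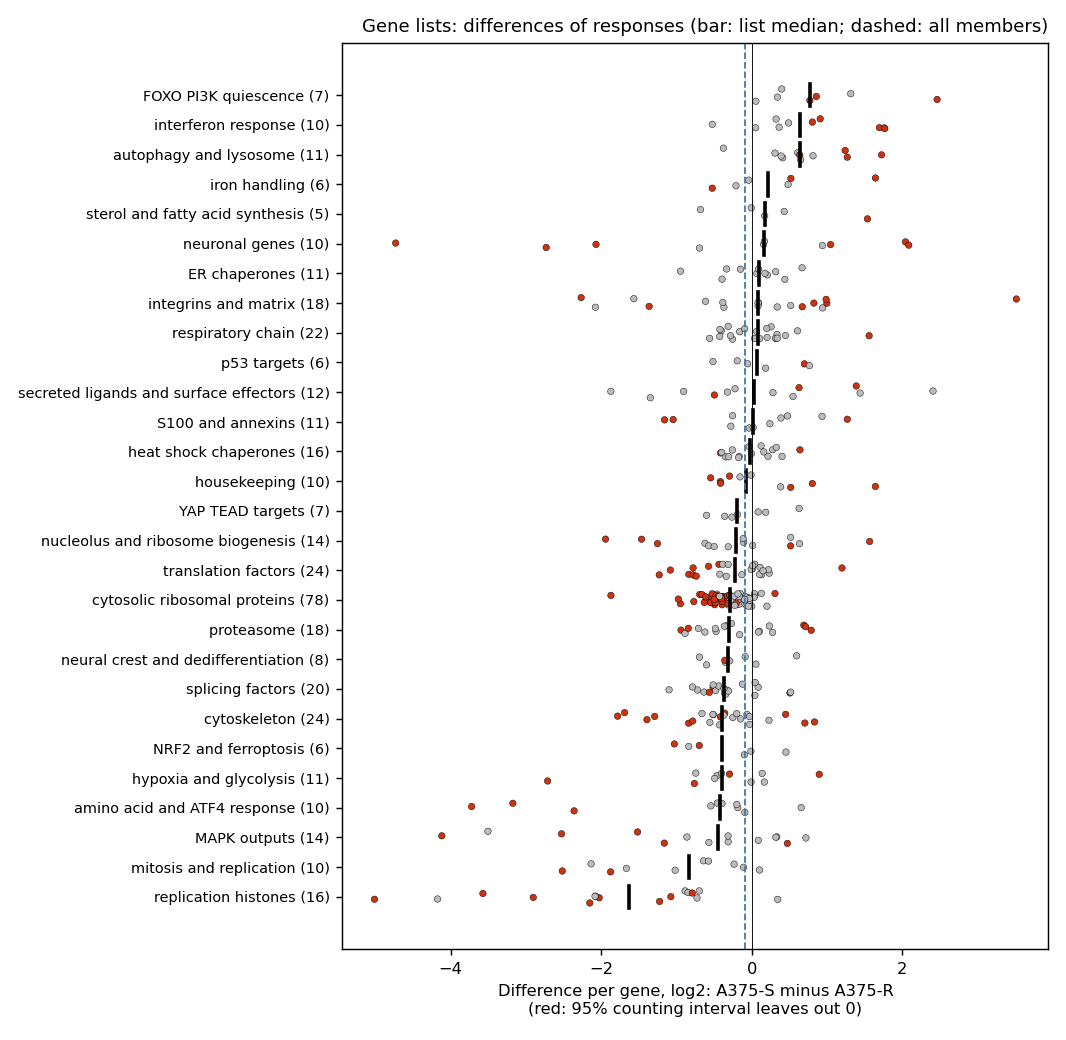
Difference of responses per gene (A375-S minus A375-R, log2) in gene lists with at least 5 members, ordered by their median (black bar), with the number of members beside each name; red points have a 95% counting interval that leaves out 0, and the dashed line is the median of all members, -0.09. Replication histones (-1.62) and mitosis and replication (-0.83) have the lowest medians and the FOXO and PI3K list (0.77, or 0.06 with total gene-table scaling) the highest; medians between 0 and 0.71 turn negative with total gene-table scaling.

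Cytoskeleton genes leaned the same way as the translation genes. Of 37 listed genes 24 were members, the median difference was -0.39 (-1.10 to -0.33 over 13 settings), and the interval was below 0 in 9 of 24 genes, against 12.2% of all genes, and above 0 in 3, near the 9.56% of all genes. ACTN1, an actin crosslinker of adhesions, had 43 and 113 counts in treated and untreated A375-R, against 10 and 169 in treated and untreated A375-S, a difference of -1.69 (-2.95 to -0.65). TUBA1B, an alpha-tubulin with close paralogs, had 100 and 96 counts in treated and untreated A375-R, against 36 and 176 in treated and untreated A375-S, a difference of -1.39 (-2.11 to -0.72). S100A6, a calcium-binding protein on the S100 and annexin list, had 736 and 1426 counts in treated and untreated A375-R, against 86 and 662 in treated and untreated A375-S, a difference of -1.04 (-1.42 to -0.70).

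Adhesion genes were mixed. Of 41 listed integrin and matrix genes 18 were members, and they held a lost lower gene (TNC), a lost higher gene (ITGA2), 2 kept lower and 2 kept higher genes. Their median difference was 0.09, or -0.62 with total gene-table scaling. The integrin subunit ITGB3 was kept lower, with 60 and 202 counts in treated and untreated A375-R, against 14 and 239 in treated and untreated A375-S, a difference of -1.36 (-2.40 to -0.49). SPARC, a matrix protein, had 473 and 790 counts in treated and untreated A375-R, against 265 and 428 in treated and untreated A375-S. SPARC was lower with the drug in A375-R, at -0.70 (-0.87 to -0.53), and higher in A375-S, at 0.29 (0.06 to 0.51), although the sign in A375-S turns with total gene-table scaling.

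Several lists held no call in any class. The p53 targets had 6 members and a median difference of 0.06, the ER chaperones 11 and 0.09, and the sterol and fatty acid synthesis genes 5 and 0.17; these 3 medians turned negative with total gene-table scaling, and the last also with a minimum of 100 counts or a mean of 50. The heat shock chaperones had 16 members and a median of -0.02, which turned positive in 3 of 13 settings. The housekeeping genes had 10 members and a median of -0.08, which turned positive with a minimum of 20 counts. The NRF2 and ferroptosis genes had 6 members and a median of -0.40, the splicing factors 20 and -0.37, and the proteasome subunits 18 and -0.30, the last turning positive with a minimum of 100 counts. Of the 20 splicing factors, 9 reached 50 counts only in untreated A375-S, against 468 of all 1799 genes, so their median carries that selection. The respiratory chain had 22 members and a median difference of 0.09 (-0.62 with total gene-table scaling), with ATP5F1E as its 1 call, lower beyond 2-fold in A375-R only. ATP5F1E, a subunit of ATP synthase, had 129 and 442 counts in treated and untreated A375-R, against 51 and 114 in treated and untreated A375-S, a difference of 1.56 (0.97 to 2.13). Hypoxia and glycolysis genes, with 11 members, had PYGB as their 1 call and a median difference of -0.40. TKT, a pentose phosphate enzyme on the NRF2 list, had 193 and 120 counts in treated and untreated A375-R, against 97 and 237 in treated and untreated A375-S, a difference of -1.03 (-1.53 to -0.54).

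The remaining lists differed in how many of their members were called. The neural crest and dedifferentiation genes had 8 members and a median difference of -0.32, with NES, an intermediate filament protein, kept lower. The translation factors had 24 members and -0.22, and the YAP and TEAD targets 7 and -0.19, while the differences of their summed counts were 0.15 (0.10 to 0.20) and 0.15 (-0.08 to 0.37). The nucleolus and ribosome biogenesis genes had 14 members and -0.21, which became 0.01 with a minimum of 100 counts or a mean of 50. The difference of its summed counts, most of them from the uncertain WDR74, was 1.21 (1.15 to 1.28). HEATR1, a factor of ribosomal RNA transcription, had 39 and 40 counts in treated and untreated A375-R, against 12 and 94 in treated and untreated A375-S, a difference of -1.94 (-3.19 to -0.84). The S100 and annexin genes had 11 members and a median of 0.02, and the apoptosis regulators 3 and 0.59. Both were negative with total gene-table scaling and the S100 median also (-0.01) with a minimum of 100 counts. Of the 11 S100 and annexin members, 2, S100A13 and S100A16, were kept lower, against 3.06% of all genes. Another 1, S100A6, was lower beyond 2-fold in A375-S only, and 1, S100B, was higher beyond 2-fold in A375-R only. MCL1, an anti-apoptotic BCL2 family protein, was kept lower, at -2.23 (-2.81 to -1.72) in A375-R and -1.53 (-2.13 to -1.01) in A375-S.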

How the data were processed

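Total RNA from 4 A375 cell groups (RNeasy Mini kits) went into SMARTer smRNA-Seq libraries that were read on a NextSeq instrument, per the labels' protocols. The authors deposited raw read counts per gene, not normalized, per the file headers. Per the submitters' processing notes the genome build was hg19. The sources used here name no aligner or counter and do not state the use of strand, so reads of overlapping or antisense genes cannot be told apart. MicroRNA counts were not used here, and 1 gene with a difference beyond 2-fold is counted but not reported by name. The members, gene lists and rules were chosen with earlier results of these data known.

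Counts were scaled with TMM factors over entries with at least 10 counts in any library (edgeR 4.0.16, R 4.3.3). Log2 ratios used a prior count of 0.5, response intervals the exact conditional (Clopper-Pearson) method and difference intervals the exact conditional (noncentral hypergeometric) method (scipy 1.17.1), tested on simulated data. Genes with exons overlapping a RefSeq small RNA gene (GENCODE 29, GRCh38, matched by identifier), or counts identical to another entry, were called uncertain (118 of 1799). Named genes were, by the rule, those with the largest bounds in each class (10 lost, 6 gained, 8 kept, 4 uncertain), up to 4 per list, and FTH1, FTL and TFRC; others were chosen after their values were seen. Alternatives were other scalings, count minimums, thresholds, intervals, prior counts and counts scaled down and rounded to a common depth (DESeq2 1.42.0 for size factors).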

Additional observations from a re-analysis of the deposited data

Results flagged for a closer look

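In the genes given here, both response intervals left out 0 in opposite directions, and the difference between the lines (A375-S minus A375-R) was beyond 2-fold. With 1 library per group this difference was not tested. The genes were SLC7A5 (-3.17), RFX5 (-2.34), RPL17 (-1.87), TPT1 (1.20), CSKMT (1.42), NMT1 (1.93) and ITGA2 (3.52). SLC7A5, RFX5 and RPL17 were higher with the drug in A375-R and lower in A375-S, and the other 4 were lower in A375-R and higher in A375-S. RPL17, TPT1 and CSKMT overlap small RNA genes. NMT1 had 33 and 72 counts in treated and untreated A375-R, against 43 and 47 in treated and untreated A375-S.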

How the results depend on the processing

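No paired analysis was possible because each group has 1 library, and no replicate could be left out. As reported, differences beyond 2-fold were 16 above and 19 below 0, lost responses 8 higher and 12 lower, kept 37 higher and 55 lower, and gained 4 higher and 2 lower. No named gene whose difference was beyond 2-fold changed the sign of that difference under any alternative. Most settings could not have changed it, so this is no check of the calls. Such a difference lies at least 1 from 0, and the largest scaling shift was -0.71. Count minimums, thresholds and interval methods leave a gene's difference as it is. With total gene-table counts, differences were 4 above and 102 below, lost responses 3 higher and 64 lower, and gained lower 0; the construction shifts every difference. With a minimum of 20 counts, differences were 25 above and 32 below, lost higher 14 and gained higher 8. With a minimum of 100 counts they were 10 above and 12 below, lost lower 7, kept higher 24 and gained lower 0. With a mean of 50 counts they were 10 above and 11 below, lost lower 7, kept higher 23 and gained lower 0. These 3 settings test other genes. With a threshold of 1.5-fold, differences were 42 above and 47 below, lost responses 18 higher and 29 lower, kept 65 higher and 87 lower, and gained lower 5. Where an interval had only to leave out 0, differences were 172 above and 220 below, lost responses 66 higher and 108 lower, kept 151 higher and 276 lower, and gained 27 higher and 34 lower. Of the reported lost genes, 1 of 8 higher and 8 of 12 lower were still lost by that rule, and 5 of 8 and 9 of 12 at 1.5-fold, since their A375-R responses then pass and the genes are called kept or opposite. Without uncertain entries, gained lower was 1. With counts scaled down to a common depth and rounded, without a random draw of reads, differences were 9 above and 12 below. Lost higher was then 5 and gained lower 0. At that depth 8 lost lower genes remained, and with TMM over protein-coding entries or DESeq2 size factors 10. Summed over all listed genes (added after seeing the data), the differences were -1.40 for replication histones and -1.15 for mitosis. All other counts stayed within 1.5 times. Depth limits most genes: the median width of the difference's interval was 1.74 in log2, so absence of a call does not show equal responses. The gained lower class is the least stable, at 0 in 4 of the settings.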
